A study of Mus musculus with 24 samples.

Results

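The flavin-containing monooxygenase genes Fmo1, Fmo2, Fmo4 and Fmo5 were examined in H3K27ac ChIP-seq peak lists from mouse liver. H3K27ac is acetylation of lysine 27 of histone H3, a mark of active promoters and enhancers. A peak was assigned to a gene when it overlapped the gene body or the 10 kb on either side of it on the mm9 assembly. By this rule 4 of the 22350 annotated protein-coding genes were members, and the peaks of all lists in their windows merged into 29 of the 119348 union regions of the genome. The study compared livers of untreated male and female mice of C57BL/6J, called B6 here, and of CAST/EiJ, called CAST, an inbred strain of another mouse subspecies, in 4 groups of 5 livers with 1 input control per group. All mice were labelled as 8 weeks old. Each list pools the 5 livers of its group, so every group is 1 list, no value has a spread between animals, and no difference between lists was tested. Groups follow the sample titles, the list names and the study's methods. A separate strain field of the labels gives CAST for every female and B6 for every male and was not used. On chromosome Y the B6 male list had 39 peaks and the other lists, the CAST male list included, had 0, so that Y peaks do not check the sex of the CAST lists. On chromosome X the male lists had 1125 peaks in B6 and 1270 in CAST, and the female lists 1356 and 1390.

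Flavin monooxygenases are enzymes of the endoplasmic reticulum that carry a flavin cofactor and use NADPH and oxygen to oxygenate nitrogen and sulfur atoms of drugs, dietary amines and other foreign compounds. They complement the cytochrome P450 enzymes, and the activity of the family in mouse liver is known to differ between the sexes. Fmo1 is a broad-acting member found in liver and kidney, Fmo2 is known above all as the lung form, Fmo4 is a little-studied member of restricted activity, and Fmo5 oxidises carbonyl compounds rather than amines.

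Fmo2, Fmo1 and Fmo4 lie in this order along chromosome 1 and are transcribed in the same direction, while Fmo5 lies alone on chromosome 3. In mm9 coordinates Fmo1 (ENSMUSG00000040181.8) occupies chr1:164759692-164796679, Fmo2 (ENSMUSG00000040170.7) chr1:164804448-164828857 and Fmo4 (ENSMUSG00000026692.6) chr1:164724014-164744103, all on the minus strand. Fmo5 (ENSMUSG00000028088.8) occupies chr3:97432727-97459205 on the plus strand. The Fmo1 window overlaps those of Fmo2 and Fmo4, so the peaks at the Fmo1 promoter, between Fmo1 and Fmo2 and at the end of Fmo2 count for both genes, and the joined windows span 171.3 kb. The downstream end of the Fmo5 window holds the start of Prkab2, which encodes a subunit of AMP-activated protein kinase, and 3 of the 29 regions are near that start and not near a start of Fmo5.

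Reference sequences are shown for 3 places where the lists of the sexes differed in width or in summit fragments, chosen after these values were seen: the Fmo2 promoter and 300 bases around the highest summit of 2 intronic regions. They are mm9 sequences, that is of the B6 reference, and CAST sequence was not used. Capitals mark matches to 1 of the 6 motifs searched on both strands, which were TTCNNNGAA (STAT5/BCL6-type), ATCGAT (CUX2/HNF6-type), CAAAGTCCA (HNF4A-type), TGTTTAC (FOXA-type), TTGCGCAA (C/EBP-type) and TGACNNNGC (NRF2-type).
Fmo2 promoter: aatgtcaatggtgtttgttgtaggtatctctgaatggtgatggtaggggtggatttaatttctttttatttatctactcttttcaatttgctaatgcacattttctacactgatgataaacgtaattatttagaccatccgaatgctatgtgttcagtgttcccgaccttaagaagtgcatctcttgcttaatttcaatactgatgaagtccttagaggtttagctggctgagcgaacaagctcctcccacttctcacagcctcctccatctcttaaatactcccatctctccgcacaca
Fmo2 intron far from the start: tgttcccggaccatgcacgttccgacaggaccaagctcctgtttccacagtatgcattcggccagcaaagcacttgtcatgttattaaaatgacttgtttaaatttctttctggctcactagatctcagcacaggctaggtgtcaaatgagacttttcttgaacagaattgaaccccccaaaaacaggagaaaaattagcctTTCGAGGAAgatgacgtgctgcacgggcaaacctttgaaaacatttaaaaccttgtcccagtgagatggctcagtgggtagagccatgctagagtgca
Fmo1 intron: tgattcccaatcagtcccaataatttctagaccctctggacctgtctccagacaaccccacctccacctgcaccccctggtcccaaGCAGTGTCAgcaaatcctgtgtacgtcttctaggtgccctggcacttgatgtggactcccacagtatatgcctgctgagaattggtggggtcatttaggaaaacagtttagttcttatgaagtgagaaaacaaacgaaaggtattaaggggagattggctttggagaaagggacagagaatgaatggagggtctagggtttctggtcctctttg
The Fmo2 promoter is chr1:164828858-164829157 on the minus strand, the 300 bases before the gene's start. The 2 intronic windows are given on the plus strand and are chr1:164809981-164810280 for the Fmo2 intron far from the start and chr1:164783777-164784076 for the Fmo1 intron. The Fmo2 intron far from the start holds a TTCNNNGAA match, as do 9.42% of the summit windows of distal peaks in the CAST female list, and the Fmo1 intron holds a TGACNNNGC match on the opposite strand, as do 11.9% of those in the CAST male list. The promoters of all 4 genes, taken as 300 bases, held 0 matches to the 6 motifs, against 8.22% of all 22350 protein-coding promoters with TTCNNNGAA and 11.7% with TGACNNNGC. Of the 17 distal regions of the 4 genes, 6 held a match in the window of their highest summit, namely 2 with TTCNNNGAA, 2 with TGTTTAC, 1 with ATCGAT and 1 with TGACNNNGC. A match is a description of letters and was not tied to binding of a factor.

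Peaks covered the windows of Fmo1, Fmo2 and Fmo5 widely and that of Fmo4 least in every list. In whole liver, more cells with the mark and more mark per cell cannot be told apart. Fmo1 had 7928 bp covered in the B6 male list, 7699 bp in B6 female, 10639 bp in CAST male and 11552 bp in CAST female. Both CAST lists were thus above both B6 lists at this gene. At Fmo2 the B6 lists covered 7187 bp in males and 8103 bp in females and the CAST lists 7405 bp and 8692 bp, and here both female lists were above both male lists. Fmo4 had 1008 bp, 1343 bp, 1582 bp and 2072 bp, the female list being above the male one in each strain and both CAST lists above both B6 lists. Fmo5 ran the other way with 7613 bp, 7068 bp, 5837 bp and 5407 bp, lower in CAST than in B6 and in females than in males. As a share of the window these values came to between 11.6% and 20.3% for Fmo1, Fmo2 and Fmo5 and between 2.51% and 5.17% for Fmo4. The median over all protein-coding gene windows with a peak was between 7.09% and 7.73% in the 4 lists, so that Fmo4 was below it and the other 3 genes above it in every list. The plot of covered bases by gene and list shows these values divided into promoter and distal cover.

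**Figure D1:**
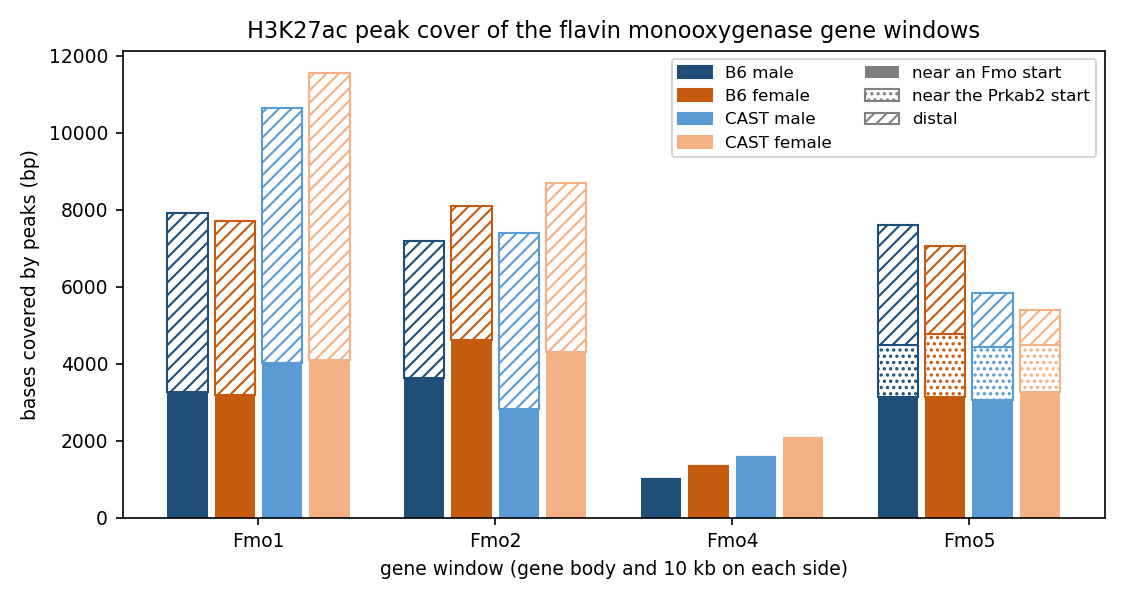
Bases covered by H3K27ac peaks (bp) in the window of each gene, 1 bar per pooled list of 5 livers. Solid parts are peaks within 2.5 kb of a start of an Fmo gene, dotted parts peaks near the Prkab2 start, and hatched parts distal peaks. Fmo1 bars rise from 7928 bp and 7699 bp in B6 to 10639 bp and 11552 bp in CAST, and Fmo5 bars fall from 7613 bp in B6 males to 5407 bp in CAST females.

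Promoter peaks, within 2.5 kb of an annotated transcript start, and distal peaks split differently in the 4 genes. All cover at Fmo4 was promoter cover, with 1 peak in each B6 list and 2 in each CAST list. At Fmo1 promoter cover was 3279 bp, 3180 bp, 4031 bp and 4092 bp in B6 male, B6 female, CAST male and CAST female lists, and distal cover 4649 bp, 4519 bp, 6608 bp and 7460 bp. The higher cover of Fmo1 in CAST was therefore in both compartments. At Fmo2 promoter cover was 3632 bp, 4614 bp, 2821 bp and 4294 bp, and distal cover 3555 bp, 3489 bp, 4584 bp and 4398 bp. The promoter values of the Fmo2 window include the shared Fmo1 promoter peak, and cover near a start of Fmo2 itself was 1648 bp, 2575 bp, 858 bp and 2388 bp. The female lists exceeded the male lists there, but not in distal cover. At Fmo5 promoter cover hardly varied, with 4486 bp, 4774 bp, 4430 bp and 4492 bp, of which 1347 bp, 1626 bp, 1365 bp and 1228 bp lay near the Prkab2 start. Distal cover of Fmo5 was 3127 bp, 2294 bp, 1407 bp and 915 bp, and it carried the lower cover in CAST and in females. Over the joined windows the lists held 22, 22, 25 and 22 peaks and 20508 bp, 20833 bp, 21519 bp and 23629 bp.

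The question of sex was put to covered bases as the ratio of female to male cover in each strain, after adding 100 bp to both. A gene was called when the ratio reached 1.5-fold in either direction. None of the 4 genes was called in either strain. The log2 ratio in B6 was -0.04 for Fmo1, 0.17 for Fmo2, 0.38 for Fmo4 and -0.11 for Fmo5, against a median of -0.04 over 16580 gene windows. In CAST it was 0.12, 0.23, 0.37 and -0.11, against a median of -0.11 over 16760 windows. Fmo2 and Fmo4 were thus above 0 in both strains and Fmo5 below it in both, but other settings turned some of these directions. With 50 kb on each side Fmo4 in B6 went to -0.01 and Fmo1 in B6 to 0.13. With peaks of at least 2-fold enrichment Fmo1 in B6 went to 0.11, and in CAST Fmo1 went to -0.21, Fmo4 to -0.02 and Fmo5 to 0.01, while Fmo2 stayed above 0 in both strains under every setting tried. Among all windows 5.71% were called for B6 females and 6.65% for B6 males, and 3.34% for CAST females and 9.92% for CAST males. The largest of these values, 1.3-fold for Fmo4 in B6, was above that of 90.9% of windows.

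Between strains, cover was higher in CAST at Fmo4 and lower in CAST at Fmo5. Fmo4 was the only member called, at 1.52-fold in males and 1.51-fold in females, just past the 1.5-fold limit, and Fmo1 in females was just short of it at 1.49-fold. Among all windows 11.8% were called for CAST and 6.19% for B6 in males, and 11.2% for CAST and 11.5% for B6 in females. For Fmo1 the log2 ratio of CAST to B6 was 0.42 in males and 0.58 in females, and for Fmo2 it was 0.04 and 0.10. With peaks of at least 2-fold enrichment Fmo1 in females went to -0.03 and Fmo2 in females to -0.004, and Fmo2 in males went to -0.02 over gene bodies and with nearby peaks merged. For Fmo5 it was -0.38 in both sexes and below 0 under every setting tried, and it was below the medians over all windows of 0.02 in males and -0.04 in females. The comparisons of the sexes and of the strains use the same 4 lists. The call at Fmo4 rested on a region upstream of its start that was called in CAST lists alone: counted over the gene body, the log2 ratio was -0.14 in males and -0.01 in females. The call was also lost with a pseudocount of 500 bp (0.47 in males and 0.48 in females), with 50 kb on each side in males (0.53) and with at least 2-fold enrichment in females (0.20).

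The height of peaks was read on 2 scales. The first is the deposited fold enrichment of each peak over the local background that the peak caller used. The second divides the number of fragments at the summit, recovered from fold enrichment and p-value together, by the list's genome-wide background of 18.4, 18.7, 17.8 and 16.9 fragments in B6 male, B6 female, CAST male and CAST female lists. The local background ran from 18.2 to 126.7 fragments among the peaks of these genes, and where it is high the scales differ. Intervals given below are 95% counting intervals of the pooled fragments and hold no variation between animals. A summit is each list's own highest point, so within a region the summits of different lists can lie at different positions.

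Fmo5 and Fmo1 had higher promoter summits than Fmo2 and Fmo4 in every list, relative to the genome-wide background. The Fmo5 promoter peak had 270 fragments at its summit in males and 247 in females of B6, and 371 and 288 in those of CAST, or 14.7, 13.2, 20.9 and 17.1 times the genome-wide background. CAST males stood above the other lists at this promoter. The Fmo1 promoter peak had 256, 270, 269 and 310 fragments in the same order, or 14, 14.5, 15.2 and 18.4 times the background. CAST females were highest there. The Fmo2 promoter peak had 142, 215, 212 and 236 fragments, or 7.74, 11.5, 11.9 and 14 times the background, with B6 males lowest. The Fmo4 promoter peak had 182, 191, 210 and 195 fragments, or 9.92, 10.2, 11.8 and 11.6 times the background, the narrowest range of the 4 genes. On the fold enrichment scale the order of the genes was another one: Fmo4 lay between 4.24 and 5.44 and Fmo2 between 3.65 and 5.46, above Fmo5 with 2.80 to 3.31 and Fmo1 with 2.61 to 2.91.

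**Figure D2:**
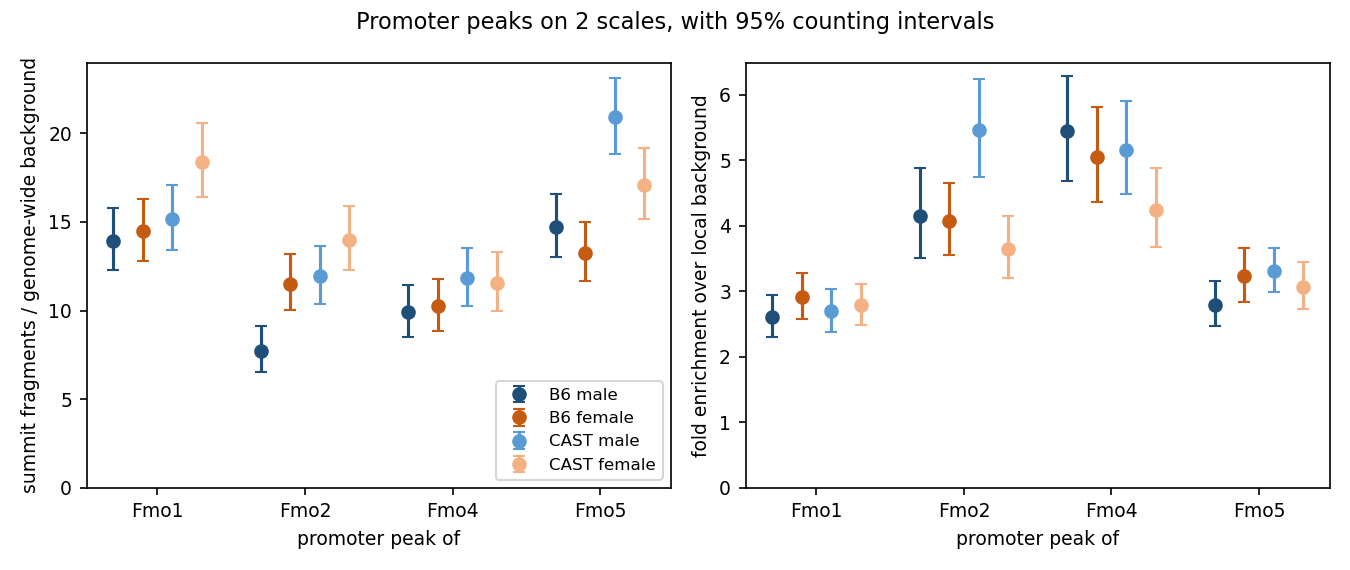
Promoter peak of each gene in the 4 pooled lists, as summit fragments over the genome-wide background (left) and as fold enrichment over the local background (right). Points are single lists and bars 95% counting intervals. On the left Fmo2 is lowest in B6 males at 7.74 and highest in CAST females at 14; on the right Fmo2 is highest in CAST males at 5.46.

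Relative to the genome-wide background, the female to male ratio of promoter summits was highest at Fmo2 in B6 and at Fmo1 in CAST. In B6 it was 1.49 (1.20 to 1.85) at Fmo2, above that of 99.2% of the 12645 promoters with a peak in both B6 lists. It was 1.04 (0.871 to 1.24) at Fmo1, 1.03 (0.838 to 1.27) at Fmo4 and 0.900 (0.754 to 1.07) at Fmo5, and these 3 intervals hold 1. The median over all promoters was 0.977. In CAST the ratio was 1.17 (0.970 to 1.42) at Fmo2, 1.21 (1.03 to 1.43) at Fmo1, 0.978 (0.801 to 1.19) at Fmo4 and 0.818 (0.699 to 0.956) at Fmo5. The median over the 12911 promoters of CAST was 0.821, and over the 62392 regions called in both CAST lists it was 0.891. Relative to the promoter median the ratios became 1.43 at Fmo2, 1.48 at Fmo1 and 0.996 at Fmo5. At Fmo4 the ratio became 1.19, which turns from below 1 to above it. Fmo2 and Fmo1 were above 97.6% and 98.2% of CAST promoters. The fold enrichment went the other way at Fmo2: its female to male ratio was 0.981 (0.791 to 1.22) in B6 and 0.669 (0.554 to 0.809) in CAST, where the local background at the Fmo2 promoter was itself 1.56 times as high in females as in males of B6 and 1.68 times in CAST. In B6 the fold enrichment also turned the direction at Fmo5, to 1.15 (0.968 to 1.38), the highest of the 4 genes on that scale. At Fmo4 it turned to 0.927 (0.753 to 1.14). On that scale the intervals of all 4 genes in B6 hold 1. Which scale reflects acetylation at these promoters was not tested.

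Between strains, promoter summits relative to the genome-wide background were higher in CAST at all 4 genes and in both sexes. With the median of all promoters set to 1, Fmo1 in males turned to 0.962. The fold enrichment put the ratio under 1 at all 4 genes in females and at Fmo4 in males, with intervals that hold 1. The CAST to B6 ratio in males was 1.54 (1.24 to 1.92) at Fmo2, 1.42 (1.21 to 1.67) at Fmo5, 1.19 (0.973 to 1.46) at Fmo4 and 1.09 (0.912 to 1.29) at Fmo1. The median of all promoters in males was 1.13. In females the ratio was 1.29 (1.09 to 1.54) at Fmo5, 1.27 (1.08 to 1.5) at Fmo1, 1.21 (1.01 to 1.47) at Fmo2 and 1.13 (0.921 to 1.39) at Fmo4, against a median of 0.948. The fold enrichment ratios in females ran from 0.841 (0.685 to 1.03) at Fmo4 to 0.959 (0.812 to 1.13) at Fmo1. In males they ran from 0.949 (0.775 to 1.16) at Fmo4 to 1.31 (1.06 to 1.64) at Fmo2. At Fmo5 a higher promoter summit in CAST went with less covered distal sequence.

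Of the 29 regions of all 4 genes, 14 were called in every list (48.3%; 95% Wilson interval 31.4 to 65.6), against 40.4% of all union regions. The regions across the outermost starts of all 4 genes were among them. Bases covered in both sexes made up 67.5% of those covered in either in B6 and 67.7% in CAST, against 64.3% and 63.7% over the genome. The map of peaks over Fmo2, Fmo1 and Fmo4 shows their positions.

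**Figure D3:**
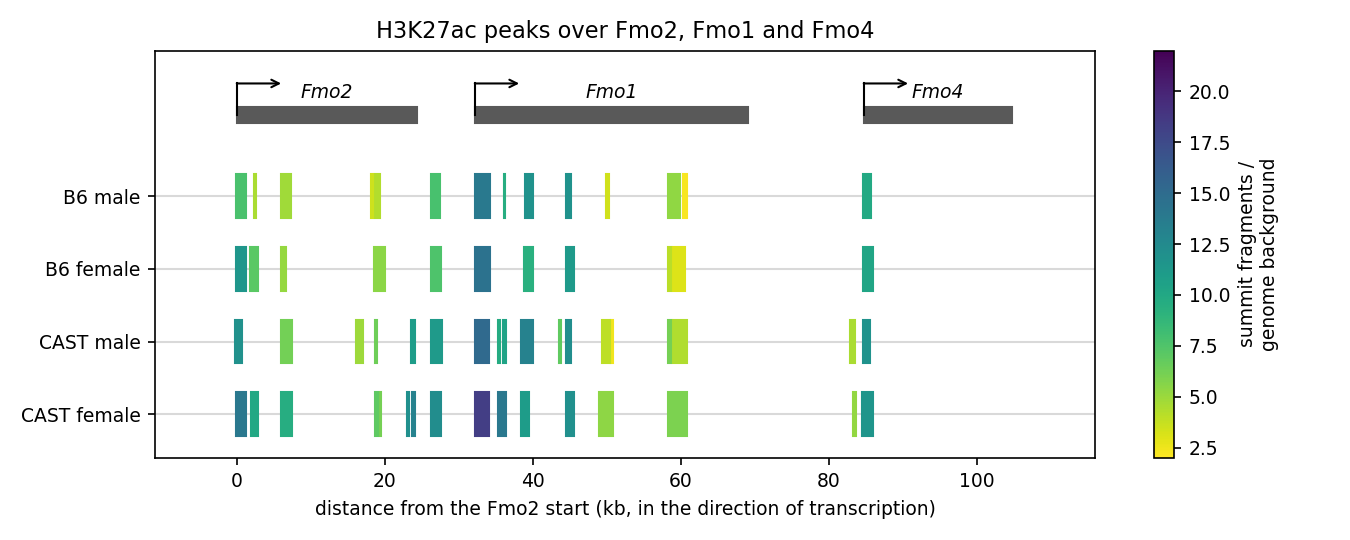
Peaks of the 4 pooled lists over Fmo2, Fmo1 and Fmo4, plotted by distance in kb from the Fmo2 start in the direction of transcription. Boxes span peaks, their colour gives summit fragments over the genome-wide background, grey bars are gene bodies and arrows their starts. The peak in the Fmo2 intron next to its start is absent from the CAST male row, and the peaks at the end of Fmo2 are present in CAST rows alone.

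In Fmo2 the lists of the sexes differed in an intron near the start. In B6, peaks covered 269 bp of the region there in males and 1178 bp in females, and in CAST none in males and 991 bp in females. Its summit had 84 fragments in males and 133 in females of B6, and 168 in females of CAST. The female to male ratio over the genome-wide background was 1.56 (1.18 to 2.07) in B6, against a median of 0.972 over 59216 regions called in both B6 lists. The fold enrichment differed less, at 2.04 in males and 2.23 in females of B6, where the local background was 40.8 and 59.2 fragments. In CAST no ratio can be given, since the absence of a peak is not a count of 0.

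The Fmo2 intron far from the start, chr1:164808858-164810254, was covered over 621 bp in males and 1397 bp in females of B6, and over 271 bp and 611 bp in those of CAST, wider in females by 2.25 times in each strain. With peaks up to 500 bp apart merged, an alternative added after the data were seen, the widths were 1241 bp and 1397 bp in B6, a ratio of 1.13, and 271 bp and 902 bp in CAST. The intronic region of Fmo1 at chr1:164783302-164784312 was covered over 636 bp, 1009 bp, 606 bp and 966 bp, wider in females by 1.59 times in each strain. Both regions were singled out after their values were seen. They were the 2 of the 14 regions of all 4 lists that were at least 1.5 times as wide in females in both strains, while 0 of the 14 were as much wider in males in both. After that merging the Fmo1 region alone was left. Over the genome 0.961% of 48266 such regions were wider in females and 2.67% wider in males by this rule. The summits differed less than the widths, with intervals that hold 1. At the Fmo1 region they had 217, 209, 217 and 203 fragments, with female to male ratios of 0.948 (0.780 to 1.15) in B6 and 0.985 (0.810 to 1.20) in CAST. At the Fmo2 region they had 79, 102, 114 and 117 fragments, with ratios of 1.27 (0.938 to 1.73) and 1.08 (0.828 to 1.41).

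**Figure D4:**
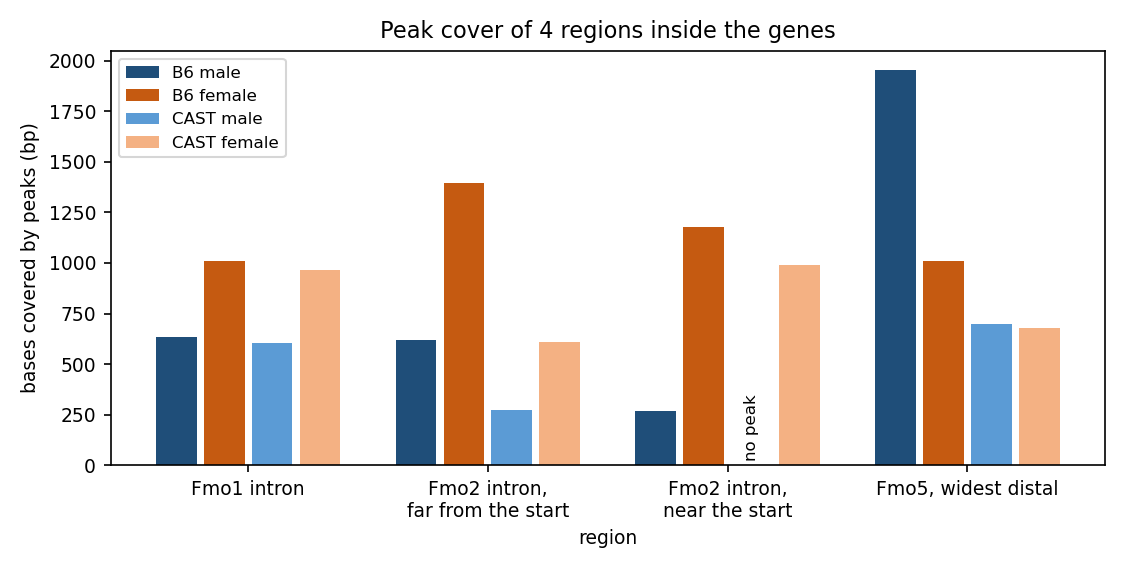
Bases covered by peaks (bp) in 4 regions inside the genes, 1 bar per pooled list. Female bars are higher than male bars in both strains at the Fmo1 intron and at both Fmo2 introns drawn, where CAST males had no peak near the start. The widest distal region of Fmo2, also in an intron, is not drawn and had 1402 bp in males and 751 bp in females of B6. At the widest distal region of Fmo5 the B6 male bar is highest at 1951 bp.

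The end of Fmo2 carried peaks in CAST alone. A region in its untranslated last exon, chr1:164804729-164805254, was covered over 469 bp in CAST males and 450 bp in CAST females and was not called in B6. Its summits had 194 and 223 fragments, 10.9 and 13.2 times the background, and ranked above 76.5% and 77.9% of the peaks of their lists by score. A neighbouring stretch of the same exon, chr1:164805635-164805896, was called in CAST females alone over 262 bp, with 203 fragments and above 72.0% of peaks. The region between Fmo2 and Fmo1, chr1:164801153-164802664, was called in every list, with 143 and 141 fragments in B6 males and females and 199 and 207 in CAST. Its CAST to B6 ratio was 1.44 (1.15 to 1.80) in males and 1.62 (1.31 to 2.03) in females, against medians of 1.09 and 0.996 over all regions called in both lists. The female summits lay at chr1:164802259 in B6 and chr1:164801721 in CAST. The fold enrichment was 2.82 in males and 3.06 in females of B6 and 3.05 and 2.51 in those of CAST, so that in females it went the other way. The part of read mapping to different genomes in these strain differences was not tested.

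The widest distal region of Fmo2, chr1:164821340-164822938 in an intron, was covered over 1402 bp in males and 751 bp in females of B6, and over 1455 bp and 1599 bp in those of CAST. Its summits had 89, 96, 111 and 161 fragments, with a female to male ratio in CAST of 1.53 (1.19 to 1.96) against 1.06 (0.787 to 1.43) in B6. The CAST summits lay at chr1:164822274 in males and chr1:164821863 in females. The fold enrichment was 2.59 and 2.05 in males and females of B6 and 2.95 and 2.52 in those of CAST, lower in females in both strains. Cover was wider in males in B6 and in females in CAST.

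Fmo1 had 3 regions of the promoter class, and the gene has several annotated starts. The region at the gene's outermost start, chr1:164794667-164796705, was covered over 1906 bp to 2039 bp in all lists. A region at an internal start, chr1:164788814-164790473, was covered over 1066 bp, 1141 bp, 1660 bp and 1120 bp in B6 male, B6 female, CAST male and CAST female lists, and its summit was lower in B6 females than in B6 males at a ratio of 0.788 (0.641 to 0.967). The ratio in CAST was 0.834 (0.684 to 1.01), but the CAST summits lay at chr1:164788972 in males and chr1:164790347 in females. An intronic region between them, chr1:164792413-164793515, had 229 bp in males and none in females of B6, and 679 bp and 1066 bp in those of CAST, with 175, 185 and 236 summit fragments where it was called. The local background was between 120.4 and 126.7 fragments there, so the fold enrichment was 1.45, 1.5 and 1.86. In CAST its female to male ratio was 1.34 (1.10 to 1.64). The widest distal region of Fmo1, chr1:164767983-164770624, overlaps coding and untranslated exons and was covered over 2169 bp to 2465 bp in every list, with fold enrichment of 5.06 in males and 3.91 in females of B6 and of 5.78 and 4.63 in those of CAST. Males were above females there in both strains, but the ratios of the summits, 0.771 (0.563 to 1.05) and 0.958 (0.723 to 1.27), had intervals that hold 1.

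Fmo4 had 2 regions, both near its start. The region across the start, chr1:164742823-164744395, was covered over 1008 bp in males and 1343 bp in females of B6, and over 922 bp and 1561 bp in those of CAST, wider in females by 1.33 and 1.69 times. The summits of 182, 191, 210 and 195 fragments gave ratios of 1.03 and 0.978, so the lists of the sexes differed in the width of this peak, while the intervals of its height hold 1. The second region, chr1:164745084-164745989 just upstream of the gene, was called in CAST alone, over 660 bp in males and 511 bp in females, with 80 and 88 fragments and above 31.9% and 32.0% of the peaks of their lists.

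Fmo5 held a broad promoter region and distal regions of low fold enrichment. Its promoter region, chr3:97431716-97434351, was covered over 2575 bp, 2523 bp, 2606 bp and 2628 bp in B6 male, B6 female, CAST male and CAST female lists, and was of nearly the same width in all. The second promoter region, chr3:97434664-97435323 in an intron, was covered over 564 bp, 625 bp, 459 bp and 636 bp with 222, 178, 273 and 233 fragments. Its female to male ratio was 0.789 (0.644 to 0.965) in B6 and 0.899 (0.752 to 1.07) in CAST, and its CAST to B6 ratio 1.27 (1.06 to 1.52) in males and 1.45 (1.19 to 1.77) in females. The widest distal region, chr3:97445322-97447272, overlaps a coding exon and was covered over 1951 bp in males and 1012 bp in females of B6, and over 700 bp and 679 bp in those of CAST. Its summits had 86, 71, 73 and 60 fragments, and all 4 ratios had intervals that hold 1. None of the distal peaks of Fmo5 in any list had a fold enrichment above 2.25, against 2.58 to 5.78 for the highest distal peaks of Fmo1 and Fmo2.

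**Figure D5:**
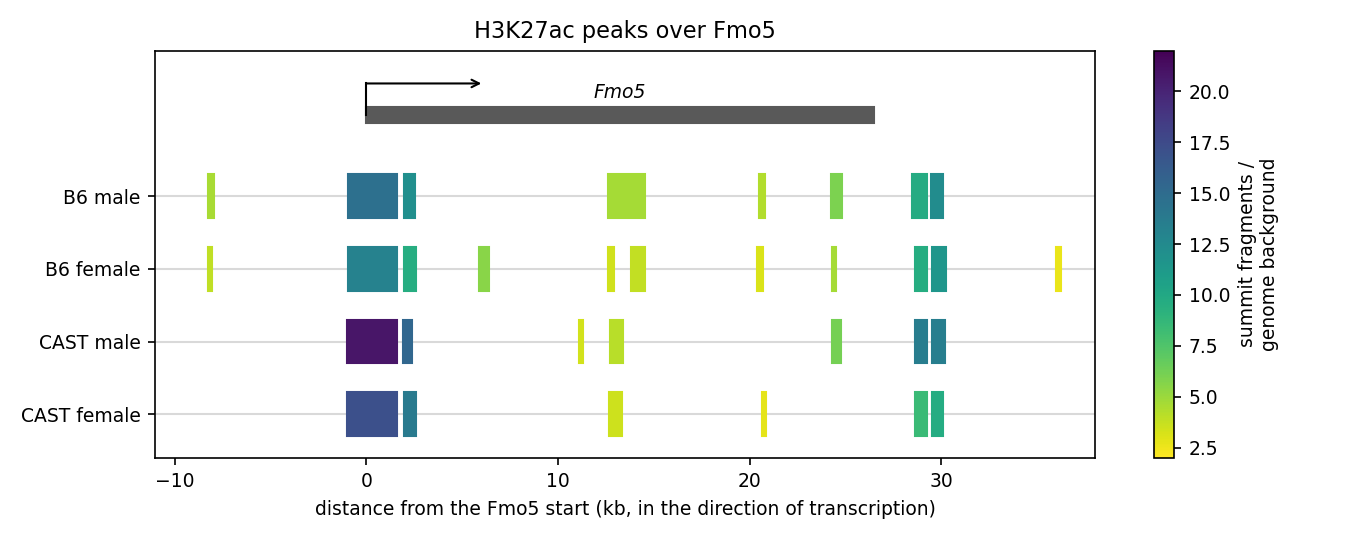
Peaks of the 4 pooled lists over Fmo5, plotted by distance in kb from its start in the direction of transcription, with boxes, colours and arrow as in the map of the chromosome 1 genes. The promoter boxes are of nearly equal width and darkest in CAST males at 20.9 times the background; the distal boxes are pale, and the pair near 30 kb belongs to the Prkab2 start.

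Regions called in 1 sex alone made up no larger share in these windows than over the genome. In B6, 3 of 23 regions were male-only (13%; 4.54 to 32.1) and 2 of 23 female-only (8.70%; 2.42 to 26.8), against 17.4% and 17.5% over the genome. In CAST, 4 of 25 were male-only (16%; 6.40 to 34.7) and 3 of 25 female-only (12%; 4.17 to 30.0), against 21.5% and 14.1%. By gene, the B6 male-only regions lay in 2 cases at Fmo1 and in 1 at Fmo2, and the B6 female-only ones in the Fmo5 window, 1 of them near Prkab2. Of the 19 regions called in both strains, 0 were female-only in both and 0 male-only in both, against 2.15% and 4.1% over the genome. Of 18 regions called in both B6 lists 1 was B6-only, a peak upstream of Fmo5 of 266 bp in males and 226 bp in females. Of 18 called in both CAST lists 2 were CAST-only, at the end of Fmo2 and upstream of Fmo4. These shares were 5.56% (0.987 to 25.8) and 11.1% (3.10 to 32.8), against 8.4% and 11.8% over the genome. These counts are small and their intervals cover the genome-wide shares. With 50 kb on each side, which adds other genes, 12 of 47 regions were CAST female-only (25.5%; 15.3 to 39.5), an interval above the share of 14.1% over the genome.

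Other genes of oxidative and reductive metabolism were listed for comparison: other flavin monooxygenases, the electron donors Por, Cyb5, Cyb5b and Cyb5r3, aldehyde, xanthine and monoamine oxidases, quinone reductases, epoxide hydrolases, and alcohol and aldehyde dehydrogenases. Of the 22 listed, 21 were annotated and 20 had a peak. The median log2 ratio of female to male cover was -0.10 in B6 and -0.11 in CAST, and of CAST to B6 cover 0.20 in males and 0.02 in females. In B6 1 of the 20 was called for females and 1 for males, in CAST 0 for females and 3 for males. Between strains none was called in males, and 1 in each direction in females. Aox3, an aldehyde oxidase, was the one gene called in the same direction in both strains, with 8349 bp in males and 5412 bp in females of B6 and 10035 bp and 4708 bp in those of CAST, 1.53-fold and 2.11-fold wider in males. Fmo9 had 0 bp covered in every list.

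The label of the tissue was checked against marker promoters. All 5 hepatocyte markers had a promoter peak in every list, with a summed level of 61.1 in males and 51.2 in females of B6 and of 67.6 and 62.6 in those of CAST, times the background, lower in females in each strain. Of the 4 Kupffer cell markers 0 had one in 3 lists and 1 in the B6 female list, and 3 of 4 endothelial and 2 of 4 cholangiocyte markers had one. Of the 4 stellate cell markers 2 had one in 3 lists and 1 in the CAST male list, with summed levels of 11.3 in males and 12.9 in females of B6 and 7.55 and 8.19 in those of CAST. Of 3 lung markers 2 had one in each B6 list and 1 in each CAST list, with summed levels of 10.1 in males and 13.2 in females of B6 and 5.75 and 6.71 in those of CAST, times the background. The sums of the stellate and lung markers were thus higher in females in each strain, as were the summits of the Fmo2 promoter. A marker without a peak added 0 to its sum, and the single stellate markers went both ways. In B6 Reln was at 8.94 in males and 10.8 in females, and Dcn at 2.40 and 2.09. In CAST Reln was lower in females, at 5.88 against 7.55, and Lrat had a peak in females alone, at 2.31. The lung marker Sftpc had no peak in any list. The part of these markers' cell types in the peaks at Fmo2 was not tested. The lists held 79862 to 90228 peaks each, and the depth of single livers was not analysed here.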

How the data were processed

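The members and lists were chosen with earlier results of these data known. The authors aligned reads with Bowtie2, B6 to mm9 and CAST to a CAST genome whose coordinates were converted to mm9, pooled the 5 livers of a group and called peaks with MACS2 against the group's input (tools and build as named in the submitters' processing notes). The deposited lists give per peak a score, a fold enrichment (ratio) over the local background, and the −log10 of the p-value and of the q-value, the latter not used here. Peaks were ranked by the deposited score, ties by p-value. From the deposited fold enrichment and p-value the whole number of summit fragments and the local background were solved, with an integer solution within 0.01 for 99.7% to 99.9% of peaks. The choice of this measure followed a look at the data. The genome-wide background is the most common local background of a list. Annotation was GENCODE vM1 on NCBIM37, the same build. Promoter peaks lay within 2.5 kb of any annotated transcript start. Overlapping peaks of the lists were merged into regions. Sex-only regions were called in 1 sex of a strain and strain-only ones in both sexes of 1 strain alone. Each list pools its livers, so no test was made. Count ratios have exact binomial 95% intervals, summits exact Poisson and shares Wilson intervals, which cover counting error only. The text names all 4 genes in every list, listed oxidation genes called the same way in both strains or both sexes, every promoter region of a member, sex-only or strain-only regions in the upper 50% of a list, and the widest distal region of each gene; others are said to be chosen after their values were seen. The region between Fmo2 and Fmo1 was also chosen so. Window measures and count recovery were tested on simulated data. Python 3.11.15, NumPy 2.4.6, SciPy 1.17.1 and matplotlib 3.10.9 were used. The sequence and position of 1 region are not reported here.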

Additional observations from a re-analysis of the deposited data

How the results depend on the processing

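No paired analysis was possible because each list pools its 5 livers and no value per liver was used; leaving out single livers was impossible for the same reason. Covered bases, peak counts and mean fold counted as moved when they changed by more than 1.5 times, covered-base ratios when a call was gained or lost or they shifted by more than 1.5-fold, and shares and count ratios when they left their 95% interval, which is wide for the shares. Of 250 alternatives to the values over all 4 genes, those for distal peaks apart, 242 stayed within these limits. Some of them could not move. Promoter peaks within 1 kb and protein-coding starts alter only the division into promoter and distal, yet counted for total cover, peaks and mean fold. Ratios short of 1.5-fold counted as unmoved even where the direction turned. The log2 ratio of CAST to B6 cover in females went from 0.18 to -0.10 with fold enrichment of at least 2. With 50 kb on each side, which adds other genes, cover was 31201 bp in B6 males, 31627 bp in B6 females and 37339 bp in CAST females, and 35, 38 and 43 peaks were counted in B6 females, CAST males and CAST females. Distal cover then rose to between 17515 bp and 22066 bp and distal peaks to between 20 and 30 per list. With fold enrichment of at least 2, distal peaks fell from 12 to 6 in B6 males, from 15 to 9 in CAST males and from 11 to 7 in CAST females. With 50 kb, CAST female-only regions were 12 of 47 against 3 of 25, within the interval. The share of B6-only regions was 0 over gene bodies and with fold enrichment of at least 2. The CAST to B6 call at Fmo4 reversed over gene bodies (-0.14 in males, -0.0126 in females) and was lost with a pseudocount of 500 bp (0.47 and 0.48); it was also lost in males with 50 kb windows and in females with fold enrichment of at least 2, where 0.20 was left. With peaks up to 500 bp apart merged, Fmo1 passed the limit in females at 0.59; with 50 kb windows Fmo2 did so at 0.62, and with fold enrichment of at least 2 Fmo1 in females went to -0.03. In bins of 1 kb, 6 of 31 were CAST-only and 3 of 31 B6-only, against 2 and 1 of 18 regions. The fold enrichment, a scale added after the data were seen, reversed the female to male promoter ratio of Fmo2 in B6 (0.981). It also reversed the CAST to B6 ratios in females of Fmo1 (0.959), Fmo2 (0.896) and Fmo5 (0.950). In B6 it turned the female to male ratios of Fmo4 (0.927) and Fmo5 (1.15) to the other side of 1. The intervals of all these fold enrichment ratios hold 1, and the cause was not tested. Leaving out the peaks near Prkab2 moved no value past the limits.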
